A study of Mus musculus with 24 samples.

Results

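The enzymes of the tricarboxylic acid cycle were followed through 9 genes (Cs, Idh2, Idh3a, Idh3b, Idh3g, Ogdh, Suclg1, Fh1 and Mdh2), chosen by name as subunits of mitochondrial cycle enzymes out of the 12615 genes counted in brown adipose tissue (BAT) of mice. All 9 were in the table and all passed the filter on low counts. Each of 4 groups held 6 mice: mice without Cre (Cre-) and mice of the double knockout label (BATdKO), each kept at 30°C or at 8°C. All mice carried floxed alleles of both corepressor genes, TBLR1 fl/fl;TBL1 fl/fl, and the BATdKO mice in addition carried Ucp1CreERT2, a recombinase made in Ucp1-expressing cells and switched on by tamoxifen, so that recombination is restricted to those cells. The labels describe female mice and the study's text males. By the labels tamoxifen was given at an age of 5 in a unit that the labels and the methods state differently, and the temperature protocol began 3 weeks after the last dose. Mice raised at 22°C either moved straight to 30°C for 4 days, or went through 1 day each at 18, 16 and 12°C and then stayed at 8°C for 6 days by the labels and fewer by the methods. Each RNA molecule gave 1 tag, taken close to its 3′ terminus, and a long transcript therefore gave no more tags than a short one.

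In the cycle, citrate synthase (Cs) joins acetyl-CoA to oxaloacetate. Isocitrate is then oxidized, either by the NAD-dependent complex of the catalytic subunit Idh3a with Idh3b and Idh3g or by the NADP-dependent enzyme Idh2. The 2-oxoglutarate dehydrogenase complex (Ogdh), succinyl-CoA ligase (Suclg1), fumarase (Fh1) and malate dehydrogenase (Mdh2) close the circle, and the electrons released feed the respiratory chain. Brown adipocytes are packed with mitochondria and burn fuel for heat when the protein UCP1 uncouples respiration from ATP synthesis, which cold exposure calls upon.

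The libraries need a few remarks before the results. Total counts ranged from 699703 (Cre- 30°C mouse m4) to 11527643, and the lowest count of any cycle enzyme in a library was 54, for which counting error alone is 13.6%. For Idh2 the lowest count was 73, in the same library, with a counting error of 11.7%, above the CV of the gene in its group (8.4%). Transcripts of the deleted genes were higher, not lower, under the BATdKO label. Tbl1xr1, which encodes TBLR1, had 39.8 ± 4.01 CPM (SD, n = 6) under that label at 8°C and 20.9 ± 2.24 CPM (same n) in the Cre- mice. CPM are counts scaled to a common library size after TMM normalization. In edgeR the log2 fold change at 8°C was 0.92 for Tbl1xr1 (adjusted p = 0.00348, quasi-likelihood test) and 0.39 for Tbl1x, the other deleted gene (adjusted p = 0.0633). At 30°C they were 0.44 and 0.35, with adjusted p of 0.36 and 0.205. Why these transcripts were higher was not tested. Their tags lie at the 3′ end and the deleted exons are not given in the sources used here, so they do not check the deletion, and genotypes below are those of the labels. At 30°C the libraries called m6 here (mice are numbered m1 to m6 within each group) went against the rest of their groups, with 38.6 CPM of Tbl1xr1 in the Cre- library (highest of 6) and 17.0 CPM in the BATdKO library (lowest of 6). All 11 markers of brown adipocytes were counted, and their sum was 0.0704 to 0.349% of counts. All 6 listed markers of hepatocytes, liver cells, were counted too and summed to 2.15 to 3.40% of counts, above the brown adipocyte sum in every library, with albumin (Alb) at a mean of 1.04% and Ucp1 at 0.0874%. Skeletal muscle markers (14 of 16 counted) made up 0.00336 to 1.47% of counts, with the highest share in Cre- 30°C mouse m3, and none of the 5 lymphocyte markers was in the table. From which cells the tags of the cycle enzymes came was not tested, and in bulk tissue fewer cells of a type and less RNA per cell cannot be told apart.

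Promoter sequences of members that rose or fell in the cold are shown first, because the cAMP response element is a classical target of the adrenergic signal in brown fat. RefSeq windows on GRCm38.p6, from 250 bases before to 50 after an annotated start, were found for 8 of the 9 members, and not for Idh3a. The full palindrome TGACGTCA, in capitals below, stood in windows of 2 members, Ogdh (51 bases before the start) and Mdh2 (127 bases before it), and is held by 1.8% of all 32544 windows. It was absent from the windows of Suclg1, which rose in the cold, and of Idh2, which fell, and these are printed beside the others.
Ogdh, chr11:6291347-6291646, + strand: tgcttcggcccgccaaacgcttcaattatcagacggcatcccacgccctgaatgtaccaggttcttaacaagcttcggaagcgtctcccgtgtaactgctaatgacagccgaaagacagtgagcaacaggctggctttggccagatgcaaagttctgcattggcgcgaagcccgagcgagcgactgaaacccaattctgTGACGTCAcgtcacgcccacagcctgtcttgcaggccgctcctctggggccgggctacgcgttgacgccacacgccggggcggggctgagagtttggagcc
Mdh2, chr5:135778399-135778698, + strand: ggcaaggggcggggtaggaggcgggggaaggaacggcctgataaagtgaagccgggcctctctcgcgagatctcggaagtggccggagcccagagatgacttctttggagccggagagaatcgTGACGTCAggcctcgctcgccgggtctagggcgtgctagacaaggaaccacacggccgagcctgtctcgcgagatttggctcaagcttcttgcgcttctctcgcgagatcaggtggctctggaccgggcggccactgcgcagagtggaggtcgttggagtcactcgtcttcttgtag
Suclg1, chr6:73248255-73248554, + strand: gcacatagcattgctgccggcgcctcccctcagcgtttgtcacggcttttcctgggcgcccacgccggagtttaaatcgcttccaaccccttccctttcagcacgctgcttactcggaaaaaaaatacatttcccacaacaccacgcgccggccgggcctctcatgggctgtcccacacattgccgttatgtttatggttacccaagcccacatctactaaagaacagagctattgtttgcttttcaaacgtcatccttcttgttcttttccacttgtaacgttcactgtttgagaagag
Idh2, chr7:80115301-80115600, - strand: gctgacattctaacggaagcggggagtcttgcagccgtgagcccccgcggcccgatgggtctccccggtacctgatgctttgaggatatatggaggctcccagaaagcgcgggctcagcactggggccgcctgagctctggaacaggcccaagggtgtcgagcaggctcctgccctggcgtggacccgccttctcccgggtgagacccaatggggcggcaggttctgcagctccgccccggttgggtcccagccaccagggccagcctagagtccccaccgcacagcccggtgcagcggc
Ogdh has 6 such windows, of which the most upstream is printed, and 3 overlapping ones hold the same palindrome. Of the other motifs searched on both strands, CCGGAAG, the ETS/GABPA site (8.91% of windows), was found 5 bases before the start of Idh3b and 104 before that of Idh3g. AAGGTCA, the core of the element bound by estrogen-related receptors (4.71% of windows), and CATGCGC, part of the NRF1 site (3.93%), were found only in downstream windows of Ogdh among the members, and the longer TCAAGGTCA (0.412%) in none. Windows of Cs and Fh1 held none of these motifs. Starts here are those of RefSeq. The gene coordinates given further below are from GENCODE, where Mdh2 and Idh3b begin further upstream, so their matches lie inside those gene spans. A match shows only that the letters are there.

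The members spanned a wide range of tag levels, and levels are given in CPM throughout. Mdh2 had the highest mean over the 24 libraries at 316.4 CPM and was followed by Suclg1 at 279.8 CPM, Ogdh at 191.1 CPM, Idh3a at 153.6 CPM and Cs at 139.0 CPM. Idh3g (117.0 CPM), Idh3b (111.8 CPM) and Idh2 (96.9 CPM) lay lower, and Fh1 was lowest at 51.6 CPM. Suclg1 exceeded Ogdh, and Ogdh exceeded Idh3a, in 24 of 24 libraries. Idh3a exceeded Cs in only 13 of 24 and Idh3g exceeded Idh3b in 14 of 24, so these neighbours are not apart. This order is over warm and cold mice together: in Cre- mice at 30°C Idh3a, at a mean of 102.3 CPM, lay below Cs (121.6), Idh3g (112.0) and Idh2 (110.9) and level with Idh3b (102.4). Together the 9 genes took 0.0943 to 0.178% of the counts of a library. The exons of Idh3b overlap those of Nop56 on the other strand, and whether counting used the strand is not stated, so its counts may include tags of that gene. No exon of the other members overlaps another gene.

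**Figure D1:**
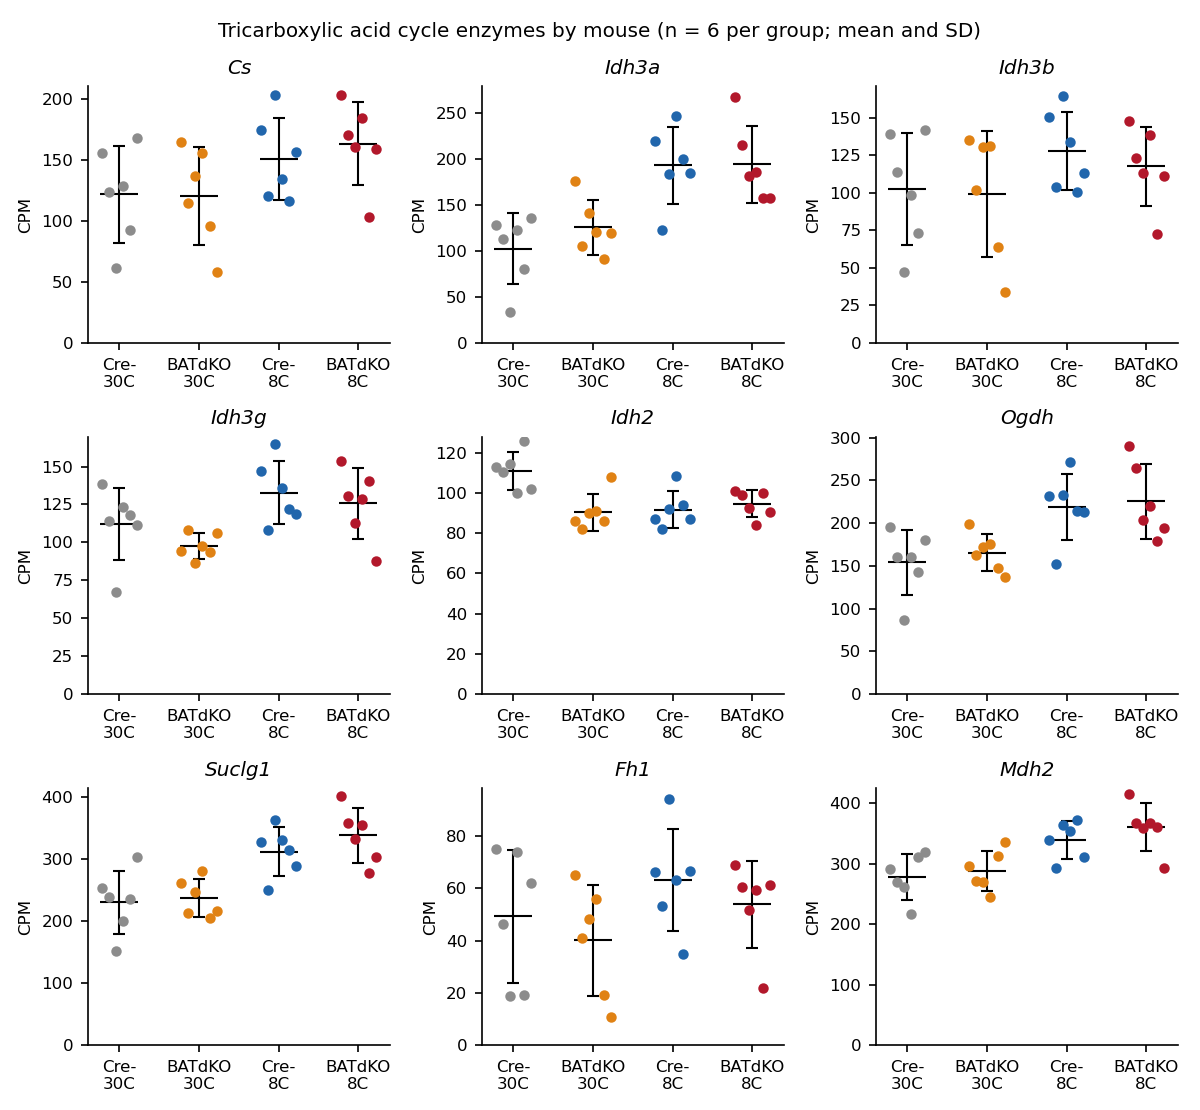
CPM (vertical axis, starting at 0) of each enzyme gene in each mouse, by labelled genotype and temperature; points are mice, with the mean and SD of 6 mice in black. Idh3a, Ogdh, Suclg1 and Mdh2 stand higher at 8°C in Cre- mice, Idh2 is highest in Cre- mice at 30°C, and Cs, Idh3b and Fh1 spread widely within groups.

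The comparison of 8°C with 30°C in Cre- mice sets cold against warm in mice without the recombinase. By the numbers in the library names, all 30°C libraries form a block and all 8°C libraries another, with genotypes mixed in each. What the blocks stand for is not stated, so cold cannot be told apart from the block in either cold comparison. A total of 5 members passed the adjusted threshold of 0.1 in edgeR's quasi-likelihood test, 4 higher and 1 lower in the cold, where 9.15% of the 12485 genes tested passed (5.57% higher and 3.59% lower). Idh3a, the catalytic subunit of NAD-dependent isocitrate dehydrogenase, rose most, and Ogdh, Suclg1 and Mdh2 rose with it, whereas Idh2 fell. Of the 9 members, 8 had a log2 fold change above 0 (46.0% of all genes), with a median of 0.31 against -0.02 over all genes.

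At the isocitrate step, Idh3a and Idh2 moved in opposite directions in Cre- mice. Idh3a (chr9:54586334-54604661, + strand) had 34.1, 80.6, 112.6, 123.0, 128.1 and 135.4 CPM in Cre- mice at 30°C and 122.4, 183.8, 184.9, 199.8, 218.8 and 246.4 CPM at 8°C. Thus 5 of the 6 cold mice lay above every warm mouse, and the group overlapped through a single cold mouse, m2, the lowest. Its log2 fold change was 0.93 (SE 0.23, 95% interval 0.46 to 1.39, adjusted p = 0.0114, edgeR), that is 1.90-fold. The lowest warm value came from mouse m3, and in the 24 fits that each left out 1 library the log2 fold change stayed between 0.74 and 1.04 with adjusted p at most 0.0369. The partners of Idh3a in the complex did not pass the test. Idh3b (chr2:130279309-130284547, - strand) had a log2 fold change of 0.31 (interval -0.23 to 0.85), and Idh3g (chrX:73778963-73786897, - strand) one of 0.25 (interval -0.03 to 0.53).

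Idh2, the NADP-dependent enzyme (chr7:80094846-80115392, - strand), went the other way. It had 99.8, 102.1, 110.3, 112.9, 114.5 and 125.6 CPM in Cre- mice at 30°C and 82.0, 86.9, 86.9, 91.9, 94.0 and 108.3 CPM at 8°C. Here 5 of 6 cold mice lay below every warm mouse, and mouse m4, with 108.3 CPM, overlapped the warm group. The log2 fold change was -0.28 (SE 0.08, interval -0.44 to -0.12, adjusted p = 0.028, edgeR), and it kept its call in all 24 fits without 1 library. Its CV within groups was 6.98 to 10.2%.

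Further along the cycle, Ogdh, the substrate-oxidizing subunit of the 2-oxoglutarate dehydrogenase complex (chr11:6291633-6356642, + strand), ranged from 86.2 to 195.0 CPM (median 160.4) at 30°C and from 152.5 to 271.0 CPM (median 223.1) at 8°C in Cre- mice. Of the 6 cold mice, 5 exceeded all warm mice, and the log2 fold change was 0.51 (SE 0.15, adjusted p = 0.0463, edgeR). Its call did not hold without Cre- 30°C mouse m3 (adjusted p = 0.105) or without Cre- 8°C mouse m4 (adjusted p = 0.135). Suclg1 (chr6:73248382-73276911, + strand) is the subunit of succinyl-CoA ligase that is shared by its versions for ADP and for GDP. It ranged from 151.2 to 303.4 CPM (median 237.1) in the warm and from 250.2 to 362.7 CPM (median 321.0) in the cold. The log2 fold change was 0.43 (SE 0.12, adjusted p = 0.0346, edgeR). All 6 cold mice lay above the median of the warm mice, and the call held in all 24 fits without 1 library. Mdh2, mitochondrial malate dehydrogenase (chr5:135778480-135790398, + strand), ranged from 216.0 to 318.8 CPM (median 280.5) in the warm and from 292.0 to 372.8 CPM (median 346.1) in the cold. Its log2 fold change of 0.28 (SE 0.09, adjusted p = 0.0832, edgeR) was close to the threshold, and the call was lost in 9 of the 24 fits without 1 library, with adjusted p up to 0.182.

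Cs and Fh1 did not pass. Citrate synthase (chr10:128337734-128362479, + strand) ranged from 61.2 to 168.1 CPM in the warm and from 116.2 to 203.0 CPM in the cold, with a log2 fold change of 0.31 (interval -0.15 to 0.77). Fumarase (chr1:175600374-175625635, - strand) ranged from 18.8 to 75.2 CPM in the warm and from 34.7 to 94.2 CPM in the cold, with a log2 fold change of 0.41 (interval -0.33 to 1.15), so that anything from a modest drop to a 2.22-fold rise was compatible with these mice. Their CV within groups was 20.8 to 33.2% for Cs and 30.9 to 53.1% for Fh1.

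In BATdKO mice, the same comparison of cold with warm asks how the cycle responds under the double knockout label, in mice that it does not share with the Cre- comparison. Suclg1 and Mdh2 passed the threshold and both rose, where 7.07% of all genes passed (3.76% higher). All 9 members had a log2 fold change above 0, where 49.5% of all genes did, and their median was 0.42 against -0.003 over all genes. Suclg1 ranged from 205.5 to 281.7 CPM (median 231.6) at 30°C and from 278.3 to 402.6 CPM (median 344.0) at 8°C. Of the 6 cold mice, 5 exceeded every warm mouse, and the log2 fold change was 0.51 (SE 0.12, adjusted p = 0.0154, edgeR). Mdh2 ranged from 244.3 to 335.3 CPM (median 283.8) and from 292.5 to 415.2 CPM (median 363.8), with a log2 fold change of 0.32 (SE 0.09, adjusted p = 0.0477, edgeR). Again 5 of 6 cold mice stood above all warm mice.

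Ogdh, Idh3a and Idh3g lay near the threshold in BATdKO mice. Ogdh had a log2 fold change of 0.44 (SE 0.15, adjusted p = 0.102, edgeR), Idh3a one of 0.62 (SE 0.22, adjusted p = 0.118) and Idh3g one of 0.36 (SE 0.14, adjusted p = 0.142). All 3 passed when only the BATdKO libraries were fitted, which brought the count to 5, where 876 of 11767 genes passed. Idh3a had 91.6 to 176.1 CPM (median 119.6) in the warm and 156.9 to 267.1 CPM (median 183.3) in the cold, where all 6 mice exceeded the warm median. Idh2 differed little, with 82.2 to 108.1 CPM in the warm and 84.3 to 101.1 CPM in the cold (log2 fold change 0.06, interval -0.10 to 0.22).

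**Figure D2:**
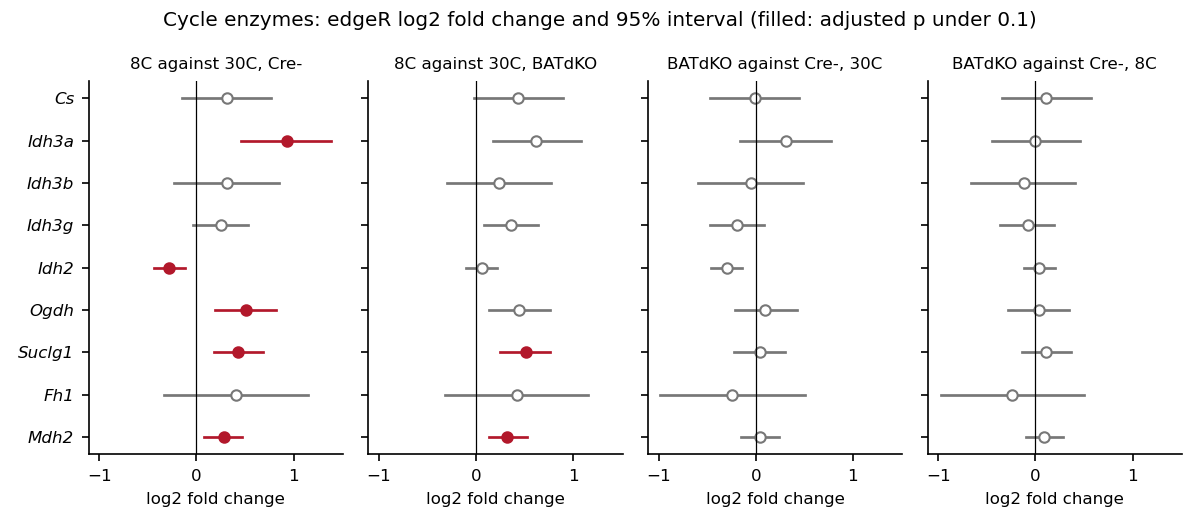
Log2 fold change (horizontal axis) with its 95% interval for each member in 4 comparisons, from edgeR; filled symbols passed an adjusted p of 0.1. Both cold comparisons lie mostly right of 0, with Idh2 left of 0 in Cre- mice, and both genotype comparisons lie around 0.

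In no member were the groups of mice without overlap in any of the 4 comparisons, a pattern shown by 2.93% and 2.99% of all genes for cold in Cre- and BATdKO mice and by 1.95% and 0.296% between genotypes at 8°C and at 30°C.

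Whether cold acted differently in the genotypes was tested as an interaction, in which no member passed and 0.0961% of all genes did. Of the members, Idh2 alone passed an unadjusted threshold of 0.05 in edgeR, as 8.05% of all genes did, with a difference of 0.34 between the cold effects (interval 0.12 to 0.57) and an adjusted p of 0.358. For Suclg1 and Mdh2 the effects differed by 0.08 (interval -0.29 to 0.44) and 0.05 (interval -0.23 to 0.32). For Idh3a the difference was -0.30 (interval -0.95 to 0.34), which leaves room for a smaller or a somewhat larger cold effect in BATdKO mice.

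Between genotypes at 8°C, the comparison closest to the question of how the corepressors act in the cold, no member passed, where 1.82% of all genes did, and none had an unadjusted p under 0.05 in edgeR (9.24% of all genes did) or passed in DESeq2. The log2 fold changes ran from -0.24 (Fh1) to 0.11 (Cs and Suclg1). Idh3a had a log2 fold change of 0.00 with an interval of -0.45 to 0.46. The narrowest intervals were those of Idh2 (0.04, interval -0.12 to 0.20) and Mdh2 (0.09, interval -0.10 to 0.28), whose upper bounds were 1.15-fold for Idh2 and 1.22-fold for Mdh2. The widest, of Fh1, ran from -0.97 to 0.50. Slc25a1, the carrier that exports citrate from mitochondria, was the single gene among 19 that feed or drain the cycle to pass here, with a log2 fold change of -0.72 (SE 0.10, adjusted p = 0.000173, edgeR).

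At 30°C no member passed either, as no gene did in edgeR (0.0% of 12485; 1303 genes, or 10.4%, had an unadjusted p under 0.05, and DESeq2 called 90). Idh2 was the single member with an unadjusted p under 0.05 in edgeR, and DESeq2 called it (log2 fold change -0.31, adjusted p = 0.0683). In edgeR its log2 fold change was -0.30 (SE 0.08, interval -0.46 to -0.14, adjusted p = 0.151). The BATdKO mice had 82.2, 85.8, 86.0, 89.8, 91.0 and 108.1 CPM against 99.8 to 125.6 CPM in the Cre- mice (exact permutation test, two-sided, unadjusted p = 0.00649, where 0.00216 is the smallest possible). Adjusted over the 36 exact tests of members, and not over all genes, this p was 0.0445. The highest BATdKO value was that of mouse m6, and the second lowest Cre- value, 102.1 CPM, was that of its own mouse m6, the libraries whose Tbl1xr1 stood against their groups. Without both, an exclusion chosen after seeing the data, Idh2 passed (log2 fold change -0.39, adjusted p = 0.0062, edgeR), as 500 of 12500 genes did. Leaving out the highest BATdKO and the second lowest Cre- value widens the gap by itself, so this call is no separate evidence. This comparison and that of cold in Cre- mice use the same Cre- mice at 30°C, in which Idh2 was highest, so the lower values are not independent of each other.

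Ratios of counts within a library do not depend on normalization, and 8 pairs of enzymes that share a step or a complex were compared in 4 contrasts each, 32 exact permutation tests in all. Idh2 to Idh3a, the NADP-dependent enzyme to the catalytic subunit of the NAD-dependent one, was 0.754, 0.811, 0.881, 0.98, 1.56 and 3.36 in Cre- mice at 30°C and 0.397, 0.439, 0.47, 0.471, 0.5 and 0.669 at 8°C. The groups did not overlap, and the ratio was 0.409 times as high in the cold (difference of log2 ratios -1.29, exact permutation test, two-sided p = 0.00216, adjusted over the 32 p = 0.0346). The highest warm ratio was that of mouse m3, and without it the other 5 warm mice, from 0.754 to 1.56, still stood above all cold mice. In BATdKO mice the ratio ranged from 0.487 to 0.939 in the warm and from 0.378 to 0.638 in the cold, with overlap (difference -0.57, exact p = 0.0152, adjusted p = 0.0808). Both genes of this ratio are those that moved in opposite directions above, so it restates their counts on another scale.

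Within the NAD-dependent complex, Idh3a rose against its partners in Cre- mice. Idh3a to Idh3b went from 0.718 to 1.25 (median 0.972) in the warm to 1.12 to 1.98 (median 1.54) in the cold (difference 0.62, exact p = 0.00866, adjusted p = 0.0693). Idh3a to Idh3g went from a median of 0.957 to one of 1.52 (difference 0.75, exact p = 0.00649, adjusted p = 0.0693). In BATdKO mice neither ratio passed (differences 0.27 and 0.29, exact p = 0.405 and 0.169). The partners' own ratio, Idh3b to Idh3g, had differences of -0.04 to 0.13 in the 4 contrasts, and none passed an exact test at an adjusted p of 0.1.

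Suclg1 joins either Suclg2, for GDP, or Sucla2, for ADP, in succinyl-CoA ligase. Suclg2 to Sucla2 was 0.347 to 0.546 in Cre- mice and 0.219 to 0.333 in BATdKO mice at 8°C, without overlap (difference -0.61, exact p = 0.00216, adjusted p = 0.0346). Neither gene passed between genotypes at 8°C on its own: Sucla2 had a log2 fold change of 0.49 (adjusted p = 0.32) and Suclg2 one of -0.13 (adjusted p = 0.758) in edgeR. Suclg1 itself had one of 0.11 (interval -0.14 to 0.37) there. The ratio also fell from warm to cold in BATdKO mice (difference -0.53, exact p = 0.0108, adjusted p = 0.0693). It was lower too in the cold in Cre- mice (difference -0.39, exact p = 0.162) and under the BATdKO label at 30°C (difference -0.47, exact p = 0.132). Neither of these passed, and whether the genotype difference depends on temperature was not tested for ratios. The ratios of Ogdh to Dlst, of Mdh2 to the cytosolic Mdh1 and of Idh2 to the cytosolic Idh1 did not pass in any contrast.

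**Figure D3:**
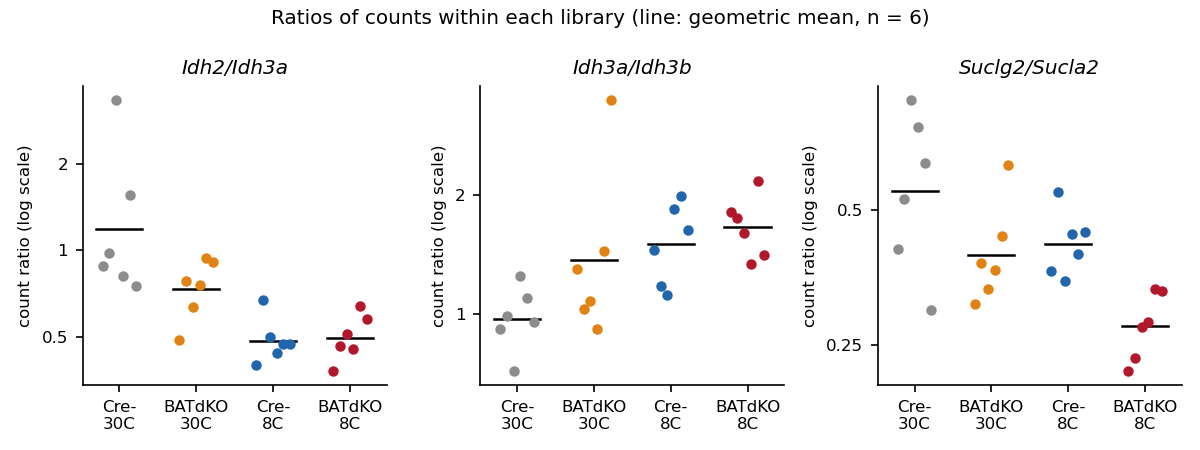
Ratios of counts within each library on a log2-spaced vertical axis, by labelled genotype and temperature; points are mice and lines geometric means of 6 mice. Idh2/Idh3a is lower at 8°C in both genotypes, without overlap in Cre- mice, and Suclg2/Sucla2 separates the genotypes at 8°C.

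Genes of the rest of the cycle were taken from a list. Of 12 further cycle genes counted, out of 13 listed, 5 rose in the cold in Cre- mice and none fell (9.15% of all genes passed), and all 12 had a log2 fold change above 0 there, as 46.0% of all genes did (median 0.31). The 5 that rose were Dld (0.70, adjusted p = 0.0228) and Dlst (0.66, adjusted p = 0.0443), the partners of Ogdh in its complex, Sucla2 (0.59, adjusted p = 0.0696) and Suclg2 (0.30, adjusted p = 0.0454), the partners of Suclg1, and Sdha (0.32, adjusted p = 0.0728), the flavoprotein of succinate dehydrogenase, all from edgeR. In BATdKO mice Sucla2 alone rose (0.69, adjusted p = 0.0364) and 11 of 12 were above 0 (median 0.21), where 7.07% of all genes passed and 49.5% were above 0. Between genotypes none of the 12 passed at either temperature.

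Among 19 genes that feed or drain the cycle, 9 passed for cold in Cre- mice, where 9.15% of all genes did. The 6 that rose included 3 subunits of pyruvate dehydrogenase, which makes the acetyl-CoA used by Cs, namely Pdhb (0.90, adjusted p = 0.000513), Dlat (0.79, adjusted p = 0.00855) and Pdha1 (0.67, adjusted p = 0.0333). The other 3 act on citrate and malate for lipid synthesis: Me1 (1.02, adjusted p = 1.26e-06), Slc25a1 (0.84, adjusted p = 5.19e-06) and the citrate lyase Acly (0.78, adjusted p = 0.00746). Pcx, which makes oxaloacetate from pyruvate (-0.18, adjusted p = 0.0716), Pck2 (-0.78, adjusted p = 0.0741) and the aspartate-glutamate carrier Slc25a12 (-0.96, adjusted p = 0.0605) fell. Slc25a12 spread widely in the warm, from 8.85 to 50.9 CPM (mean 19.6, SD 16.5), and overlapped the cold mice at 8.76 to 12.3 CPM. Pck2 had few tags, with 3.09 to 8.89 CPM in the warm and 2.09 to 4.22 CPM in the cold. In BATdKO mice 5 passed (7.07% of all genes), with Pdhb, Pdhx, Got1, Me1 and Acly higher. A further list held 10 counted genes of succinate dehydrogenase assembly, of the supply and attachment of lipoate, and of iron-sulfur cluster assembly. Of these, 1 rose in each genotype, Sdhaf3 in Cre- mice and Lipt1 in BATdKO mice, a share near that of all genes (9.15% and 7.07%).

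**Figure D4:**
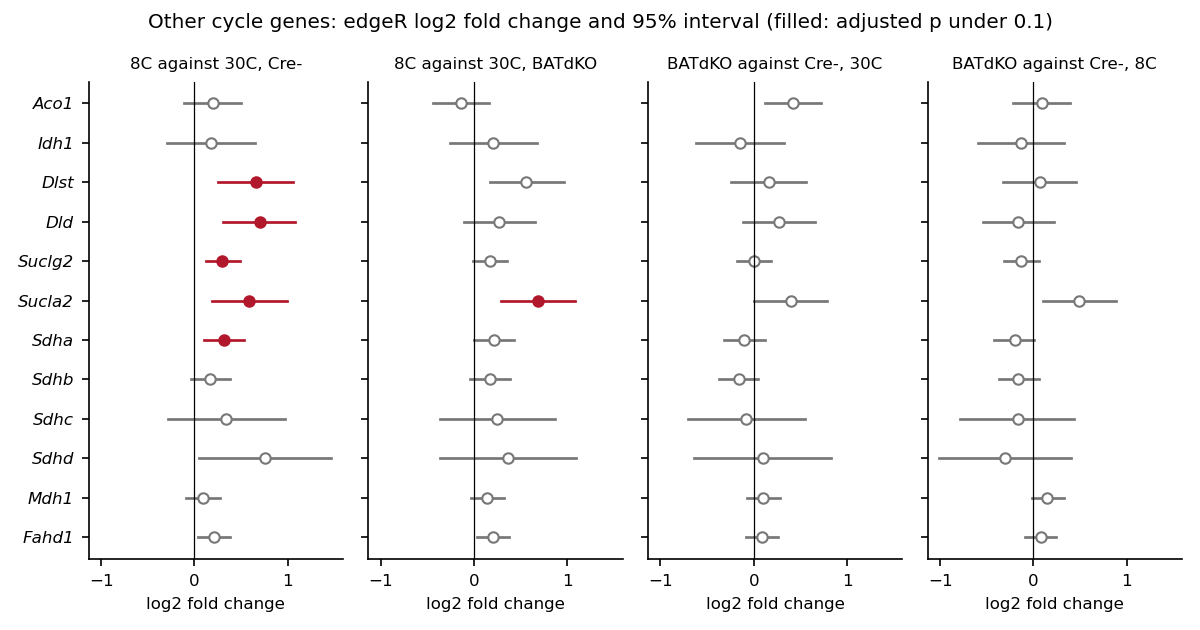
Log2 fold change (horizontal axis) with its 95% interval for the 12 other cycle genes in 4 comparisons, from edgeR; filled symbols passed an adjusted p of 0.1. In Cre- mice all points lie right of 0 in the cold and 5 are filled, and in BATdKO mice 1 is.

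Mice within a group differed along the same lines for most members. Across the 24 libraries with group means removed, 30 of the 36 pairs of members correlated above 0 (median r 0.541), a description in which all points share the library, its normalization and its mix of cells. Cs, Idh3b and Fh1 varied most closely together, with r of 0.967 for Cs with Idh3b, 0.932 for Cs with Fh1 and 0.923 for Idh3b with Fh1. Idh3a, Ogdh and Suclg1 formed another set, each with r of 0.85 to 0.95 to the mean of the other 2. Mdh2 (r 0.047 to the mean of the other members) and Idh2 (r -0.243) stood aside, and the lowest pair was Fh1 with Idh2 (r -0.498). These sets were named after the values were seen and are not separate, as Ogdh with Cs had r of 0.779.

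The libraries behind the sets can be named. In Cre- 30°C mouse m3, both sets were low, by -1.03 (Cs, Idh3b and Fh1) and -0.94 (Idh3a, Ogdh and Suclg1) on the log2 scale against the group mean, while Idh2 stood at 0.05 and Mdh2 at -0.08. That library was lowest of its group in 7 of the 9 members, and also had the highest muscle marker share (1.47%), the lowest mitochondrially encoded share (19.3%) and the lowest Ucp1 share (0.00324%). In BATdKO 30°C mouse m6, only the first set was low, by -1.33, with the other at -0.15, Idh2 at 0.26 and Mdh2 at 0.23. Fh1 in that mouse had 10.8 CPM, against 65.2 CPM in mouse m1 of the same group, and Cs had 57.7 against 164.4 CPM. In the cold, BATdKO mouse m5 showed the first set at -0.84 and the other at -0.29, and BATdKO mouse m1 was highest of its group in all 9 members. Fh1 varied most, with a CV of 30.9 to 53.1% within groups.

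**Figure D5:**
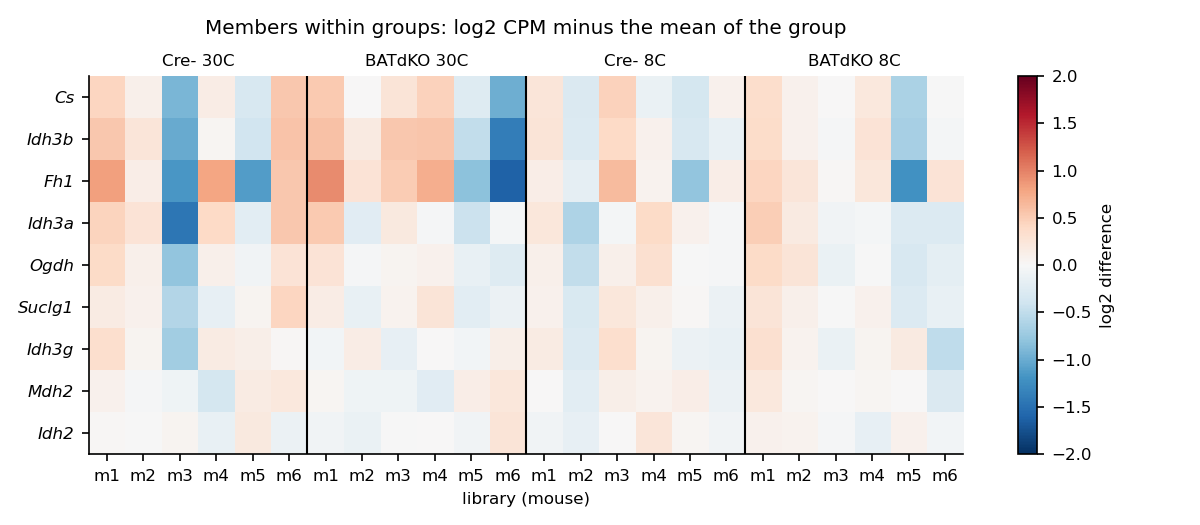
Difference of log2 CPM from the group mean (colour) for each member (rows) in each library (columns, by group). Cre- 30°C mouse m3 is low in the upper 7 rows, BATdKO 30°C mouse m6 and BATdKO 8°C mouse m5 are low in Cs, Idh3b and Fh1, and Mdh2 and Idh2 stay between -0.35 and 0.26.

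Several other cycle genes varied with 1 or both of these sets. With the mean of Cs, Idh3b and Fh1 and with group means removed, Sdhc had r of 0.96, Dlst of 0.90, Idh1 of 0.87 and Aco1 of 0.87. With the mean of Idh3a, Ogdh and Suclg1, Dld had r of 0.91 and Sucla2 of 0.89, but with the first mean they had 0.83 and 0.85. Dlst, a partner of Ogdh, had 0.75 with the second mean. Members crossed over too, with r of 0.75 for Ogdh and 0.70 for Suclg1 to the first mean. To the second mean Cs had 0.77 and Idh3b 0.74. Sdhb (-0.15 and 0.13), Fahd1 (-0.18 and 0.02) and Suclg2 (0.17 and 0.25), a partner of Suclg1, followed neither. Over all 12485 genes, those most like the mean of the 9 members across the 24 libraries were Atp5b (r 0.965), a subunit of ATP synthase, the complex I genes Ndufv2 (0.962), Ndufs5 (0.949) and Ndufs4 (0.94), and Ghitm (0.959), an inner membrane protein of mitochondria. With group means removed Ghitm led (0.959), and Hadhb (0.949), of fatty acid oxidation, joined the first 5 in place of Ndufs4.

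Other measures moved with the cold beside the cycle enzymes. The Ucp1 share rose without overlap in both genotypes, from 0.00324 to 0.0548% to 0.098 to 0.199% of counts in Cre- mice and from 0.00943 to 0.042% to 0.126 to 0.173% in BATdKO mice. The sum of the 11 brown adipocyte markers went from a mean of 0.137 to 0.279% and from 0.172 to 0.268%, but without Ucp1 the other 10 went from 0.118 to 0.132% in Cre- mice and from 0.142 to 0.115% in BATdKO mice. No marker but Dio2 was at 0 in any library (Dio2 in 1). The mitochondrially encoded share went from a mean of 24.3 to 30.9% in Cre- mice and from 27.8 to 31.6% in BATdKO mice. The 9 cycle enzymes together went from a mean of 0.136 to 0.156% and from 0.132 to 0.153%. Hepatocyte markers were at 2.62 to 3.40% and 2.31 to 3.01% in warm and cold Cre- mice, and at 2.27 to 2.91% and 2.15 to 3.09% in BATdKO mice. With these genes out of the library sizes, an alternative chosen after seeing the data, 5 and 2 members passed as before, where 1141 and 875 of 12485 genes did. Macrophage markers (5 of 6 counted) went from a mean of 0.0168 to 0.0135% in Cre- mice and red cell markers (4 of 5) from 0.414 to 0.514%, and endothelial markers (5 of 5) from 0.0143 to 0.0171%. Stromal progenitor markers (6 of 6) went from a mean of 0.024 to 0.0169% in Cre- mice and from 0.0195 to 0.0136% in BATdKO mice, in the latter without overlap (0.0177 to 0.0224% against 0.0121 to 0.0151%). Muscle markers ranged from 0.00438 to 1.47% and from 0.00336 to 0.320% in warm and cold Cre- mice, and from 0.00698 to 0.143% and from 0.00397 to 0.0301% in BATdKO mice, with Myh7 at 0 in 7 libraries. In Cre- 30°C, Cre- 8°C and BATdKO 8°C the library with the least of the cycle enzymes also had the lowest mitochondrially encoded share of its group, and in BATdKO 30°C it had the second lowest. The part of these shares in the results was not tested.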

How the data were processed

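BAT RNA of 24 mice (4 groups of 6, by the labels) was sequenced from the 3′ end. Per the study's methods, reads (forward mates alone) were trimmed by BBDuk and mapped by STAR on GRCm38, and Rsubread summed tags for each gene. The counts the authors deposited are raw, without normalization; their processing notes also name DESeq2. The annotation and the strand setting are not given in the sources used here. Libraries the authors left out are not named, so all 24 were used. Of 12615 identifiers 12608 were matched to a symbol.

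Counts were normalized by TMM and filtered by filterByExpr (12485 genes kept, 130 removed), and edgeR 4.0.16 (R 4.3.3) quasi-likelihood tests were fitted over all genes and the 4 groups, with 5 contrasts and Benjamini-Hochberg adjustment over all genes tested (threshold 0.1). Ratios of counts were tested by exact permutation (924 assignments of 6 against 6) and adjusted over the 32 tests. The log2 CPM of each member was tested in the same way in 4 contrasts and adjusted over the 36 tests, of which 10 had an adjusted p under 0.1. Log2 CPM used a prior count of 2. Scripts were tested on simulated data. Totals were 699703 to 11527643 counts per library; intervals in edgeR cover counting error and mouse-to-mouse spread together. All 9 members and the listed genes of the cycle, its entry and exit and its assembly were named by rule, not by value, but the members and lists were chosen with earlier results of these data known. The names m1 to m6 were given here within each group, in the order of the animal numbers in the labels, and pair no mice. Alternatives were DESeq2 1.42.0, RLE normalization, other filters, robust dispersion, only the groups compared, library sizes without mitochondrial or muscle genes, and each library left out. Promoters are from RefSeq and gene coordinates from GENCODE. Some genes of these lists are not reported here.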

Additional observations from a re-analysis of the deposited data

Results flagged for a closer look

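In 4 of the 36 sets of 6 mice (9 members in 4 groups), 1 mouse lay further from the others than Dixon's limit for 6 samples allows; chance gives about 1 in 20. Cs in BATdKO 8°C mouse m5 was 102.8 CPM, against 159.0 to 203.0 CPM in the other mice. Fh1 in the same mouse was 21.7 CPM, against 51.7 to 68.8 CPM. Idh3g in Cre- 30°C mouse m3 was 67.2 CPM, against 111.4 to 138.4 CPM. Idh2 in BATdKO 30°C mouse m6 was 108.1 CPM, against 82.2 to 91.0 CPM, and lay within the range of the Cre- mice at 30°C. The causes were not tested.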

How the results depend on the processing

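No paired analysis was possible because the mouse numbers in the labels pair no mice between groups. The counts of members that passed at 8°C between genotypes and in the interaction were 0 under every alternative run. Between genotypes at 30°C, 1 member, Idh2, passed under DESeq2, without both m6 libraries and without 4 libraries at 30°C (Cre- m3, m4 and m6 and BATdKO m6). When single libraries were left out, 0 to 1 passed (1 without either m6). The exclusions of both m6 and of the 4 libraries were chosen after seeing the data. For cold in Cre- mice 3 members passed without those 4 libraries, and 3 to 5 without single libraries (3 without Cre- 30°C mouse m3 or Cre- 8°C mouse m4). For cold in BATdKO mice 5 passed when only its groups were fitted and 5 without those 4 libraries; without single libraries the count ran from 1 (without BATdKO 30°C mouse m2 or m4, or BATdKO 8°C mouse m1) to 5 (without Cre- 30°C mouse m3, whose spread the groups share in the fit), and was 4 without BATdKO 30°C mouse m1. Suclg1 kept its call in both cold contrasts, and Idh3a and Idh2 in Cre- mice, in all 24 fits without 1 library; Mdh2 lost its call in 9 of them in Cre- mice and in 3 in BATdKO mice, and with only its groups in Cre- mice (adjusted p = 0.118, edgeR). The number of the 32 ratio tests that passed was 6, and 4 to 10 without single libraries (10 without Cre- 30°C mouse m6). Over all genes, between genotypes at 8°C 227 passed, 477 with only its groups, 393 without the 4 libraries and 138 without BATdKO 8°C mouse m5; at 30°C 0 passed, 90 in DESeq2, 500 without both m6 libraries and 251 without the 4; without Cre- 30°C mouse m6 alone it was 369, and 0 to 67 without another single library (67 without Cre- 30°C mouse m2, 47 and 41 without BATdKO 30°C mouse m4 and m6). In the interaction 12 passed, 51 in DESeq2, 21 with robust dispersion, 44 without both m6, 24 without the 4, and 7 to 37 without single libraries (7 without BATdKO 30°C mouse m2, BATdKO 8°C mouse m5 or Cre- 8°C mouse m5; 21 without BATdKO 30°C mouse m4; 35 and 32 without Cre- 30°C mouse m1 and m6; 37 without Cre- 8°C mouse m2). For cold in Cre- mice 1143 of 12485 genes passed, 1136 of 12554 without the 4, and 791 to 1343 without single libraries. For cold in BATdKO mice 883 of 12485 passed, 876 of 11767 with only its groups and 912 of 12554 without the 4. Without single libraries it was 574 to 1069 (574 without BATdKO 8°C mouse m4, 1069 without BATdKO 30°C mouse m4, 981 without Cre- 30°C mouse m3). The causes were not tested. Depth limits the library with the fewest counts, Cre- 30°C mouse m4, where the lowest count of a member was 54 (counting error 13.6%).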
